A study of Mus musculus with 34 samples.

Results

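The fat around the epididymis of HF3 mice was set directly against that of STD mice on 2 dye-swapped arrays of experiment 1, out of 34 two-colour arrays in the series (12 in experiment 1 and 22 in experiment 2). The arrays were chosen by their labels, which pair HF3 with STD: array 1 held HF3 RNA in Cy5 and STD RNA in Cy3, and array 2 held HF3 RNA in Cy3 and STD RNA in Cy5. HF3 mice were the offspring of HF2 mice and ate high fat food. HF2 itself was not analysed here. STD mice ate normal food. Other arrays used here add HF4 mice, born to HF3 mice and fed high fat food, and HF0 mice, born to STD mice and fed high fat food. The labels name the tissue as epididymal fat for all of them. They give no strain, age, number of mice or pooling, and do not say whether the extracts of the experiments came from separate animals. The series is titled for obesity that passes between generations under a fat diet, and this pairing sets the HF3 generation against mice on normal food.

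White fat stores triglyceride in adipocytes, which take up fatty acids, esterify them and coat the lipid droplet with specialised proteins. The same cells secrete hormones such as leptin, adiponectin and resistin. Between them lie capillaries, fibroblasts and macrophages, and in obesity macrophages gather around stressed adipocytes and release cytokines. The pad lies on the epididymis and testis and is covered by mesothelium, so pieces of those tissues can come with a dissected pad.

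Each value is a log2 ratio of HF3 over STD, centred on the array's median. It is coded as Cy5 over Cy3 on array 1 and with the sign turned on array 2. A pair of values for a gene is that of array 1, then that of array 2. The labels do not state which dye the authors divided by which. With Cy5 on top, positive means more RNA in HF3 fat. With Cy3 on top every sign turns, so only opposite signs between genes hold on either reading. The arrays give ratios with no intensities, so no level of a gene is known, dim spots could not be left out and the tissue label could not be checked against marker levels. In whole tissue, fewer cells of a type and less RNA per cell cannot be told apart. The 2 arrays were taken as 1 pairing of RNA in both dyes, so there is no spread between animals and no test on them. A feature, meaning a gene or an unnamed probe, was counted when both arrays reached 1 or more, or both -1 or less.

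Inflammatory genes stood mostly on the positive side and adipocyte and blood vessel genes mostly on the negative side, on both dye orientations. The most positive genes included Cxcl2, Tnf, Il1b and Il6, with dye-swap means between 1.83 and 2.50. The most negative named gene was Spink8, a gene of the epididymis, with a mean of -3.06. After it came genes that included Cyp2e1, Crisp3, Car3, Retn, Cd36 and Cidec, with means between -2.59 and -1.82. The contrast between the sides does not depend on which dye was the numerator. However, the same contrast read through other pairings differed for many of these genes, as given below, and no gene passed the test across both experiments.

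In all, 52 of 22879 features were at or above 1 on both arrays (0.227%) and 48 were at or below -1 on both (0.21%). The dye-swap means of the 52 had a median of 1.44 and those of the 48 a median of -1.53. Another 21 features passed 1 on both arrays with opposite signs. Of the 352 features past 1 on array 1, 28.4% passed it with that sign on array 2, and of the 425 past it on array 2, 23.5% passed it on array 1. Over all features the turned arrays had a correlation of -0.11 across features, which share both RNAs and the dyes. Only 41.7% of features had 1 sign on both arrays: 20.9% were positive on both and 20.8% negative on both. The dye-swap mean had an SD of 0.27 over features and the dye term, the part that does not turn with the swap, an SD of 0.30. Actb, a cytoskeletal actin printed as 305 probes, shows the size of the dye term with little spot error: its mean was 0.08 on array 1 and -0.77 on array 2, and the SD over probes was 0.12 and 0.080. Gapdh, a glycolytic enzyme with 257 probes, averaged 0.46 on array 1 and -0.19 on array 2. Of the 100 features counted, 91 had a gene symbol, and 89 of these rested on 1 probe.

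**Figure D1:**
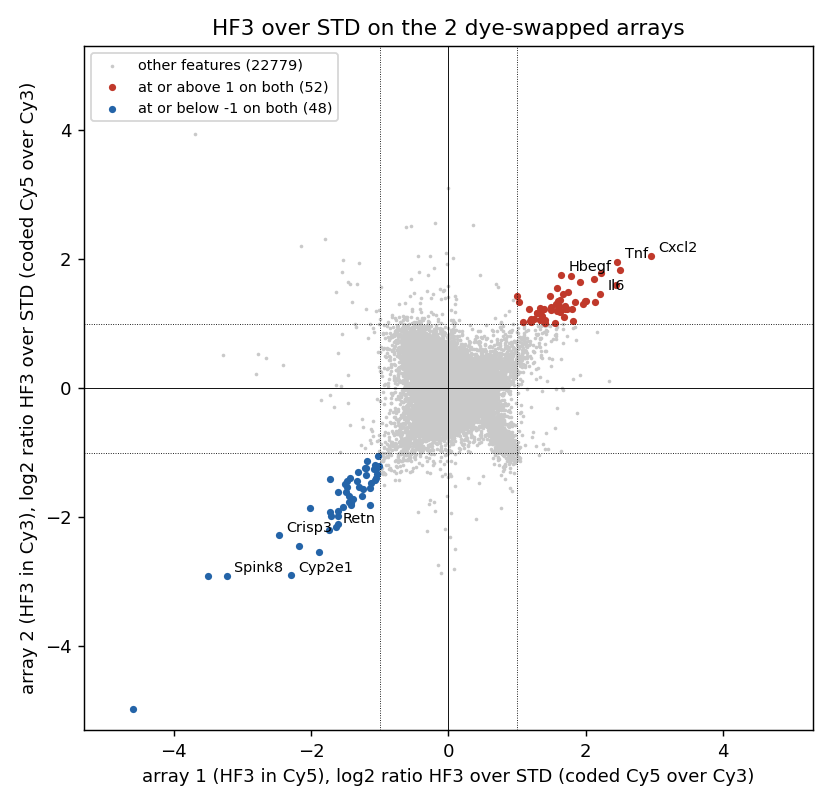
Each point is a feature, with its log2 ratio of HF3 over STD on array 1 (HF3 in Cy5) along the x axis and on array 2 (HF3 in Cy3) along the y axis. The 52 red and 48 blue points lie at or past 1 on both arrays with 1 sign, while most grey features lie within 1 of 0 and spread towards opposite signs.

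Other pairings of experiment 1 give the same contrast by 2 routes of 4 arrays each: HF3 over HF0 plus HF0 over STD, and HF3 over HF4 plus HF4 over STD. A route of experiment 2, where HF3 and STD were not paired directly, uses 6 arrays of RNA extracted with another reagent. If each group were the same RNA on every array, the routes of experiment 1 would give 1 value apart from measurement error. The direct mean differed by 1 or more from the route through HF0 for 8.65% of features and from the route through HF4 for 3.90%. It differed by 1 or more from experiment 2 for 7.85% of features. The loop of HF0, HF3 and HF4, which holds no STD array, also failed to close by 1 or more for 8.68% of features in experiment 1, against 2.66% in experiment 2. The cause was not tested, and an array or extract under a wrong label, the direct arrays included, cannot be told apart from other causes. The route values are therefore given below for the genes past 1 on both arrays that are named and for some of the gene lists. A list median given without them rests on the direct arrays alone. The direct arrays and the routes of experiment 1 share the HF3 and STD labels.

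Male germ cell genes marked the mismatch most plainly. On the direct arrays the 60 genes of 4 germ cell lists (sperm chromatin; meiosis and piRNA; sperm surface, acrosome and metabolism; flagellum) had a median of 0.01, with 13 positive on both arrays, 18 negative on both and 29 split. Of all features, 20.9% were positive on both, 20.8% negative on both and 58.3% split. The 60 genes had no common side there. Through HF0 the same 60 genes had a median of 2.49, through HF4 0.48, and in experiment 2 0.01. Tnp1, a transition protein of sperm chromatin, was 1.00 and 0.28 on the direct arrays, 5.86 through HF0, 0.36 through HF4 and -0.75 in experiment 2. Ldhc, the lactate dehydrogenase of sperm, was -0.63 and -0.68 on the direct arrays but 4.65 through HF0. Mael, a piRNA pathway protein, was -0.44 and -0.57 on the direct arrays and 5.29 through HF0. Piwil2, a germ line Argonaute protein, was positive on every route, with 0.84 and 0.61 on the direct arrays and 2.63 through HF0. The pairing of HF3 with HF0 alone put the 60 genes at a median of 2.50, against 0.03 for HF0 with STD. Other arrays carried a germ cell difference too: the median was 1.31 for HF4 over HF3 and 1.88 for HF4 over STD, which largely cancel on the route through HF4. In experiment 2 Tnp1 was 4.15 for HF3 over HF0 and -4.90 for HF0 over STD, which also largely cancel. The direct arrays showed no such difference.

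Sperm maturation genes of the epididymis were also near 0 on the direct arrays. Of 19 measured epididymal and seminal vesicle genes, 6 (31.6%) were positive on both arrays and 4 (21.1%) negative on both. The shares of all features were 20.9% and 20.8%. The list median was 0.07 on the direct arrays. In experiment 2 it was -3.06, through HF0 -0.52 and through HF4 -0.13. Cst11, an epididymal cystatin, was -0.0032 and 0.23 on the direct arrays, against -6.61 in experiment 2. Lcn8, a lipocalin secreted by the epididymis, was 0.03 and 0.50 on the direct arrays, against -5.79 in experiment 2. Spink8, a protease inhibitor of the epididymis, was the exception and the most negative named gene: it was -3.22 and -2.90, with -3.06 in experiment 2, -0.21 through HF0 and 1.64 through HF4. Crisp3, a cysteine-rich secretory protein, was next to it among named genes of secreted proteins at -2.47 and -2.28, with 1.43 in experiment 2, 1.64 through HF4 and -0.76 through HF0. The seminal vesicle protein gene Svs4 was 1.04 and 0.44. Apart from Spink8, no measured gene of the list was past 1 on both arrays.

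**Figure D2:**
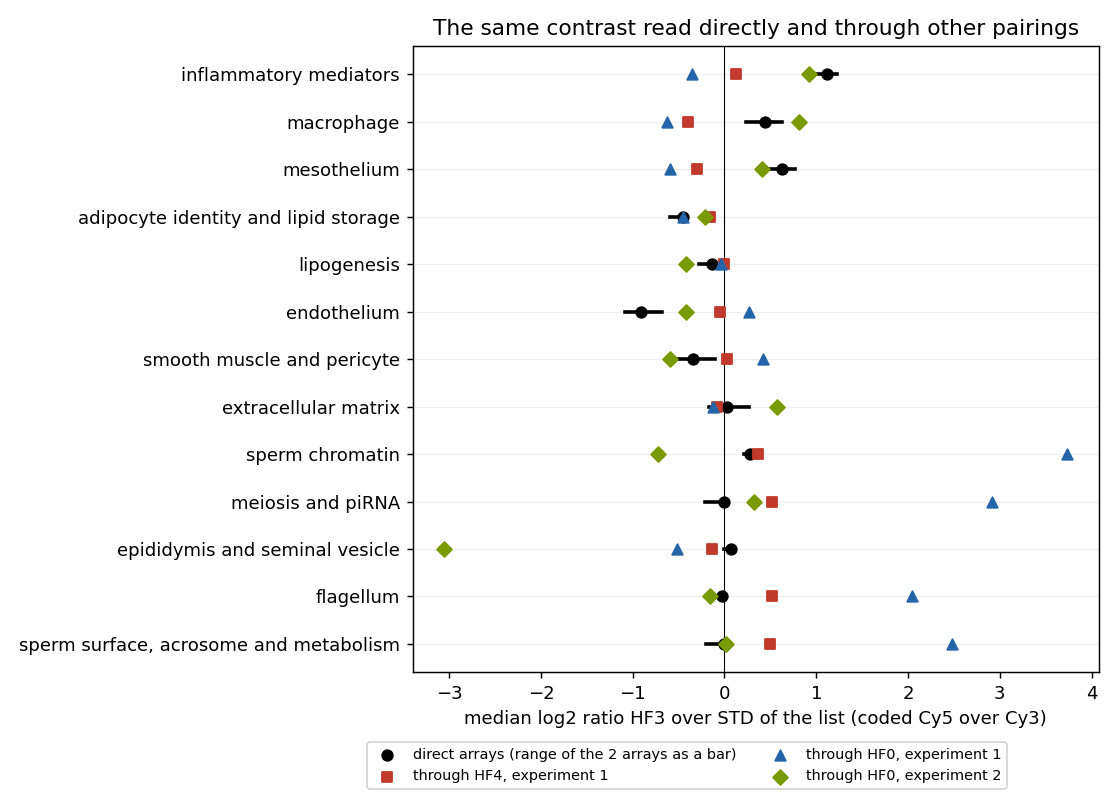
Median log2 ratio of HF3 over STD for each gene list (x axis) on the direct arrays (black points, with a bar between the medians of array 1 and array 2) and through the other pairings (coloured symbols). The medians of the routes lie close together for adipocyte genes, though members such as Cd36 and Car3 differed between routes. The germ cell lists reach 2.05 to 3.73 only through HF0 and the epididymal list reaches -3.06 only in experiment 2.

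Cytokines, chemokines and their feedback inhibitors had the highest median of the 36 lists. Of 24 measured inflammatory mediators, 17 were positive on both arrays and 3 negative on both, against 20.9% and 20.8% of all features, and 8 were at or above 1 on both against 0.227% of all features. Their median was 1.11, against 0.03 for all features. The 8 were the cytokines Tnf, Il1b, Il6 and Il10, the interleukin 1 receptor antagonist Il1rn, the chemokines Cxcl2 and Ccl7, and Ptgs2, the inducible cyclooxygenase. The list median was 0.92 in experiment 2, 0.12 through HF4 and -0.35 through HF0. The positive side was thus seen again in experiment 2 and not through HF0. Each route is a sum of 2 pairings. In experiment 1 the list median was 0.11 for HF3 over HF0 and -0.78 for HF0 over STD. Tnf was 0.04 and -1.75 on those pairings in experiment 1, and -0.14 and 0.94 in experiment 2. Il6 was 1.13 and -1.77 in experiment 1, and 2.05 and 2.29 in experiment 2. HF0 over STD thus turned sign between the experiments for Tnf and Il6, but not for Il1b, at -1.06 and -0.26.

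The promoters of 5 genes are shown, so that their letters can be set beside the values. They are genes with known roles in inflamed and lipid-storing fat, picked after their values and motif matches were seen, and not the extremes of the scale: Plek, Has1 and Il1b were more positive than Il6 and had no NF-kB element in this window. Sequences are from RefSeq (GRCm38.p6), from 250 bases before to 50 after the gene's start, read along the gene. Capitals mark a match to an NF-kB element (GGGA, any 2 bases, then TTCC) or to a TATA box (TATAAA), each searched on both strands. Retn had neither, nor the nuclear receptor core motif AGGTCA, and the other 4 genes lacked that motif too. The positions are chr5:90903649-90903948 on the plus strand for Cxcl2, chr5:30012864-30013163 on the plus strand for Il6, chr17:35201958-35202257 on the minus strand for Tnf, chr7:140763569-140763868 on the plus strand for Cyp2e1 and chr8:3655520-3655819 on the plus strand for Retn.
Cxcl2: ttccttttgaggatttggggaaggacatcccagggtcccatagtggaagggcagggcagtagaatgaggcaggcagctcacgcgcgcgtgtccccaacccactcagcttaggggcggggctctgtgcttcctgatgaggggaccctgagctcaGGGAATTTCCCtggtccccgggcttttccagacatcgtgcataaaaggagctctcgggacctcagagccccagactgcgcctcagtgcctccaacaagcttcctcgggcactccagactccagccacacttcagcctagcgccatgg
Il6: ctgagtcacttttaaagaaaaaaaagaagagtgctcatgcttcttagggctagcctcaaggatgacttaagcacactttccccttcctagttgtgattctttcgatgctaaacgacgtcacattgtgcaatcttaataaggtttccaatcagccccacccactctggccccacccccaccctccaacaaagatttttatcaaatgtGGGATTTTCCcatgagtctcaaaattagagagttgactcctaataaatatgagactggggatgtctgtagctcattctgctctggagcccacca
Tnf: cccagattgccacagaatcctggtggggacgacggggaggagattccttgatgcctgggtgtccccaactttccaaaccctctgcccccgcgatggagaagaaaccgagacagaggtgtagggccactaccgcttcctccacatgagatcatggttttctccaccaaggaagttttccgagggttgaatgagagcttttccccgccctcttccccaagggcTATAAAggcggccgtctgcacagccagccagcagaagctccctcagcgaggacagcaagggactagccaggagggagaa
Cyp2e1: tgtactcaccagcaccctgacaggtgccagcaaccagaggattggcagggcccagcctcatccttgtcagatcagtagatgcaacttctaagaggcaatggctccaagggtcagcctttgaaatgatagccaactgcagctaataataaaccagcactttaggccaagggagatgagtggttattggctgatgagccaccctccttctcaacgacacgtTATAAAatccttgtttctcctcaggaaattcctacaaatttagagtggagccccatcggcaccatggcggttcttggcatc
Retn: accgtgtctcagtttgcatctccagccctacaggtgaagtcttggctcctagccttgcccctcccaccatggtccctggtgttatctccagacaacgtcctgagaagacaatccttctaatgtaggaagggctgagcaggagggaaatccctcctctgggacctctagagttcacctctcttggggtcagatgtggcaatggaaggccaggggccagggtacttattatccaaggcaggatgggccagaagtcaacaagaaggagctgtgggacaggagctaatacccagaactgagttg

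Cxcl2 encodes a chemokine that draws in neutrophils, and it was the most positive gene at 2.95 on array 1 and 2.05 on array 2, with 1.84 in experiment 2, 0.02 through HF4 and -1.22 through HF0. In its promoter 2 overlapping matches to the NF-kB element begin at positions -97 and -96 from the start, on opposite strands. Il6, a cytokine that adipose tissue releases, holds 1 match at -44. Tnf, the cytokine that blunts insulin action in fat, has no match in this window but a TATA box at -29. Cyp2e1 has a TATA box at -31. Of 15 genes of the inflammatory list with a promoter in the table, 6 held an NF-kB element (40%), against 232 of 14738 measured genes (1.57%). Those 6 were Csf1, Cxcl1, Cxcl10, Cxcl2, Il6 and Nfkbia. The list was put together from known inflammatory genes, so this share describes the list and not the direct arrays. Of the 6, only Cxcl2 and Il6 were at or above 1 on both arrays, and Csf1 was split at 0.45 and -0.10. Among all features at or above 1 on both arrays, 2 of 34 genes with a promoter held an NF-kB element, and among those at or below -1, 1 of 31. A TATA box was in 6 of the 15 inflammatory genes and in 13.3% of all measured genes. AGGTCA, the core motif that nuclear receptors such as PPARG bind in pairs, was in 4 of 17 adipocyte genes (23.5%) and in 16.3% of all measured genes. A match describes letters and no binding was measured.

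Within the inflammatory group the cytokines differed in how the other pairings showed them. Tnf was 2.46 and 1.96 on the direct arrays, 0.80 in experiment 2, 0.08 through HF4 and -1.71 through HF0. Il6 was 2.21 and 1.46 on the direct arrays, 4.34 in experiment 2, 1.80 through HF4 and -0.64 through HF0. Il1b, an inflammasome product, was 2.12 and 1.68, but -0.21 in experiment 2 and 0.03 through HF0. Il6 thus kept its side on all but the HF0 route, while Il1b kept it clearly only within experiment 1, at 0.73 through HF4. The anti-inflammatory Il10 was 1.61 and 1.27, with 1.56 in experiment 2, -0.13 through HF4 and -0.84 through HF0. Il1rn was 1.67 and 1.46, with 1.11 in experiment 2, 0.38 through HF4 and -0.03 through HF0. Ccl7, a monocyte chemokine, was 1.33 and 1.24, with 1.59 in experiment 2, 0.17 through HF4 and -0.77 through HF0. These 3 kept their side in experiment 2 and lost it through HF0. Ptgs2, which makes prostaglandin precursors, was 1.80 and 1.22 on the direct arrays and positive on all other routes, at 2.43 in experiment 2, 0.99 through HF4 and 0.75 through HF0. It was the only 1 of the 8 that exceeded 0.5 on every route.

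Most other chemokines of the list were positive on both arrays but missed 1 on array 2, while Ccl5 and Cxcl12 were not. Cxcl1, a neutrophil chemokine, was 1.85 and 0.95, and Cxcl10, an interferon-induced chemokine, 1.67 and 0.92. Ccl2, the main monocyte chemokine of obese fat, was 1.02 and 0.53, with 1.58 in experiment 2 and -0.35 through HF0. Ccl3 and Ccl4, made by activated macrophages, were 1.81 and 0.93, and 1.11 and 0.93, but -1.68 and -1.46 through HF0. Ccl5, a T cell chemokine, was 0.68 and -0.09. Icam1, an adhesion molecule for leukocytes, was 1.57 and 0.84. Nfkbia, an inhibitor of NF-kB that NF-kB itself induces, was 0.90 and 0.39. The list also had members on the other side: Sele, the endothelial selectin, was -1.12 and -0.85, Cxcl12 -0.55 and -1.13, and Nos2 -0.50 and -0.58. Sele was positive on the other routes, at 0.74 through HF0, 1.11 through HF4 and 0.78 in experiment 2. On those routes Nos2 was 0.74, 0.77 and -1.19, and Cxcl12 -0.30, 0.08 and 0.41. Csf3, the granulocyte growth factor, was 0.42 and 0.30, and its experiment 2 value was 1.24.

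The other 8 of the 12 most positive genes had leukocyte, matrix and metabolic roles. Plek, a platelet and leukocyte protein, was 2.49 and 1.83, with 1.41 in experiment 2, -0.05 through HF4 and -1.20 through HF0. Cd83, an activation marker of dendritic and B cells, was 2.22 and 1.78, with 0.81 in experiment 2, -0.33 through HF4 and -2.14 through HF0. Stx11, a syntaxin of immune cell granule release, was 1.91 and 1.65, with 1.53 in experiment 2, 1.18 through HF4 and -0.35 through HF0. All 3 were positive in experiment 2 and negative through HF0. P2ry10, a lysophospholipid receptor of lymphocytes, was 2.00 and 1.35, with 1.06 in experiment 2, 0.85 through HF4 and -1.28 through HF0. Has1, a hyaluronan synthase, was 2.43 and 1.60, with 2.16 in experiment 2, 0.27 through HF4 and -0.69 through HF0. Hbegf, a ligand of the epidermal growth factor receptor, was 1.64 and 1.75, with 0.63 in experiment 2, 0.32 through HF4 and -0.88 through HF0. The magnesium transporter gene Nipal1 was 1.79 and 1.73, with 1.52 in experiment 2, 1.04 through HF4 and -0.30 through HF0. The array 1 value was the greater for most of these, with Hbegf as an exception.

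Hk2, the hexokinase of muscle and fat that traps glucose inside the cell, was the most positive metabolic enzyme named, at 2.13 and 1.34, with 1.24 in experiment 2, 0.91 through HF4 and -0.65 through HF0. The rest of its list of hypoxia and glycolysis genes did not share this: of 15 measured, 5 were positive on both arrays, 6 negative on both, and the median was 0.08. Of all features, 20.9% were positive and 20.8% negative on both. Hif1a, the oxygen-sensing transcription factor, was -0.48 and -0.57, Bnip3, a hypoxia-induced mitophagy protein, -0.38 and -0.64, and Pgk1, a glycolytic kinase, 0.75 and 0.14.

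Further genes at or above 1 on both arrays, chosen for mention after their values were seen, had mixed roles. They included Rel, Traf1 and Malt1 of NF-kB signalling at means of 1.31, 1.16 and 1.14, the inflammasome sensor Nlrp3 at 1.24, the inflammatory caspase Casp4 at 1.44 and the C-type lectin Clec4e at 1.45. All 6 were negative through HF0, between -0.91 for Nlrp3 and -0.27 for Malt1, and positive in experiment 2, between 0.40 for Nlrp3 and 2.33 for Rel. Through HF4 Nlrp3 was -1.29 and the other 5 lay between 0.15 for Casp4 and 0.59 for Malt1. Has2, another hyaluronan synthase, had a mean of 1.35 and was positive on every route, at 2.93 in experiment 2, 1.05 through HF4 and 0.69 through HF0. Hmox1, the heme-degrading enzyme, had a mean of 1.41, with 1.94 in experiment 2, -0.34 through HF4 and -1.16 through HF0. Hilpda, a lipid droplet protein that slows lipolysis, had a mean of 1.39, with 1.16 in experiment 2, 0.86 through HF4 and -0.81 through HF0. Fosl1, an AP-1 subunit, had a mean of 1.62, with 1.82 in experiment 2, -0.13 through HF4 and -0.24 through HF0. All 3 turned sign through HF0. Genes without such a role were there too, such as Nptx2, a neuronal pentraxin, at 1.63 on array 1 and 1.37 on array 2, and Reg3b, an antibacterial lectin, at a mean of 1.48. Through HF0 Nptx2 was -0.06 and Reg3b -1.73, through HF4 0.42 and -0.74, and in experiment 2 0.27 and 0.36.

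Macrophage genes leaned positive with smaller values. Of 24 measured, 21 were positive on both arrays and 1 negative on both, against 20.9% and 20.8% of all features. At or above 1 on both were 2, against 0.227% of all features, and the median of the 24 genes was 0.44. Their median was 0.81 in experiment 2, but -0.62 through HF0 and -0.39 through HF4. Cd14, a receptor for bacterial lipopolysaccharide, was 1.55 and 1.01, with 0.80 in experiment 2, -0.18 through HF4 and -1.54 through HF0. Lgals3, the galectin of lipid-laden macrophages, was 1.41 and 1.05, with 1.77 in experiment 2, 0.15 through HF4 and 0.14 through HF0. Ctss, a lysosomal protease, was 1.21 and 0.46, and the hemoglobin scavenger receptor Cd163 was 1.28 and 0.29. Adgre1, which encodes the macrophage marker F4/80, was 0.85 and 0.43, and Mmp12, a macrophage elastase, was 0.94 and 0.14. The complement genes that macrophages make differed among themselves: C1qb was 0.84 and 0.16, C1qc 0.30 and 0.11, and C1qa 0.07 and -0.24. Macrophage genes stood on the side of the inflammatory mediators on the direct arrays, and their part in those values was not tested.

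Mesothelial genes were positive as well. Of 8 measured, 7 were positive on both arrays and none negative on both, against 20.9% and 20.8% of all features. The list median was 0.63, against 0.41 in experiment 2, -0.30 through HF4 and -0.60 through HF0. Upk1b, a uroplakin of the mesothelial surface, was 0.89 and 0.70, and Upk3b was 0.75 and 0.54. The keratins Krt8 and Krt18 were 0.94 and 0.36, and 0.86 and 0.61, but -2.40 and -2.69 in experiment 2. Msln, mesothelin, was 0.80 and 0.42. No gene of the list reached 1 on both arrays.

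Lymphocyte and granulocyte lists had medians near 0 on the direct arrays. Each had more members positive than negative on both arrays, the T cell list only narrowly. Of all features, 20.9% were positive and 20.8% negative on both. Of 12 T cell genes 5 were positive and 4 negative on both arrays, with a median of -0.03. Il7r, the interleukin 7 receptor, was 1.29 and 1.16, with 1.90 in experiment 2, 0.46 through HF4 and 0.02 through HF0, and Ccr7, the lymph node homing receptor, was 0.94 and 0.99. Of 9 B cell genes 4 were positive and 0 negative on both arrays, with a median of 0.16, among them the adaptor gene Blnk at 1.09 and 0.62. Of 12 neutrophil genes 6 were positive and 1 negative on both arrays, with a median of 0.11. Of 7 mast cell genes 3 were positive and 0 negative on both, with a median of 0.07. Through HF0 the medians were -0.48 for T cell, -0.06 for B cell, -0.59 for neutrophil and -0.21 for mast cell genes. Through HF4 they were -0.23, -0.05, -0.24 and -0.05, and in experiment 2 0.46, 0.14, -0.01 and 1.08. Of 19 interferon response genes 9 were positive and 2 negative on both arrays, with a median of 0.11, although the median was -1.04 through HF0 and -0.82 through HF4. Antigen presentation genes had a median of 0.03 over 14 genes, against -0.60 through HF0, -0.52 through HF4 and 0.58 in experiment 2. H2-Aa, an MHC class II chain, was 0.97 and 0.58.

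**Figure D3:**
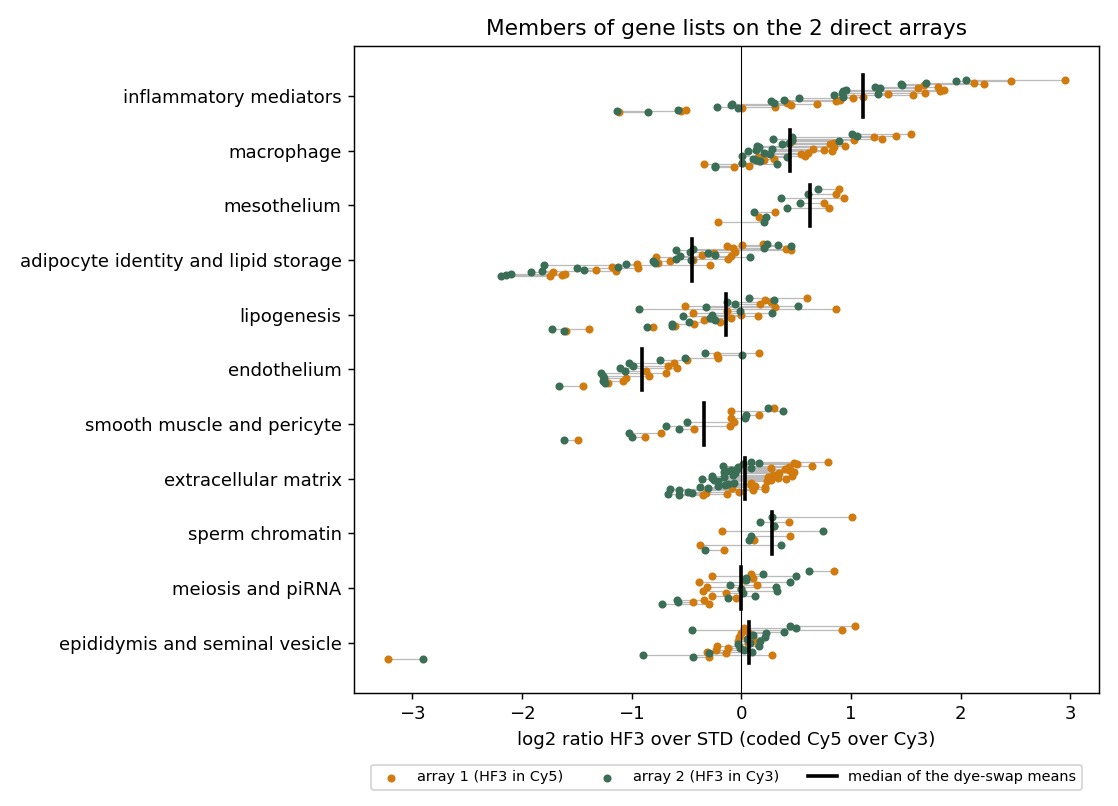
Members of 11 gene lists, with each gene's log2 ratio of HF3 over STD on array 1 (orange, HF3 in Cy5) and array 2 (green, HF3 in Cy3) joined by a line, and the list median of the dye-swap means as a black bar. Most inflammatory mediators (median 1.11) lie right of 0 on both arrays and most endothelial genes (median -0.91) left of it, while most lines of extracellular matrix genes cross 0.

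Adipocyte genes were on the opposite side. Of 25 measured genes of adipocyte identity and lipid storage, 2 were positive on both arrays and 18 negative on both. The shares of all features were 20.9% and 20.8%. At or below -1 on both were 7 of the 25 genes, against 0.21% of all features. Their median was -0.45, and it was negative on every route: -0.45 through HF0, -0.16 through HF4 and -0.21 in experiment 2. The 7 were Car3, Retn, Cd36, Cidec, Adipoq, Pck1 and Pparg. Several genes that mark adipocytes as firmly stayed near 0, so the list did not move as 1 block.

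Secreted adipocyte hormones differed among themselves. Retn, resistin, was -1.64 and -2.15 on the direct arrays, -1.33 in experiment 2, -1.01 through HF0 and -0.32 through HF4. Adipoq, adiponectin, which sensitises tissues to insulin, was -1.14 and -1.82, with -2.24 in experiment 2, -1.34 through HF0 and -0.49 through HF4. Both were negative on every route. Lep, leptin, whose RNA usually tracks fat mass, was only -0.25 and -0.31, with -0.55 in experiment 2 and -0.66 through HF4. Rbp4, the retinol carrier, was -0.44 and -0.46.

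Lipid droplet and fatty acid uptake genes held both strong and weak members. Cidec, which fuses lipid droplets into the single large droplet of white fat, was -1.72 and -1.92, with -1.94 in experiment 2, -1.12 through HF0 and -0.80 through HF4. Cd36, a fatty acid uptake protein, was -1.61 and -2.10 on the direct arrays, -0.72 through HF0 and -0.59 through HF4, but 1.27 in experiment 2. Car3, a carbonic anhydrase abundant in fat, was -1.74 and -2.20, with -1.43 through HF0 and -0.14 through HF4, but 0.89 in experiment 2. Pck1, which makes the glycerol backbone of triglyceride, was -1.33 and -1.43, with -1.08 in experiment 2, -0.57 through HF0 and 0.28 through HF4. Cidec thus kept its side on all routes and Cd36, Car3 and Pck1 did not. Dgat2, which completes triglyceride synthesis, was -0.94 and -1.50, and the lipases Pnpla2 and Lipe were -0.95 and -1.06, and -0.76 and -0.78. Plin1, which coats the droplet, was -0.36 and -0.24. Fabp4, the adipocyte fatty acid carrier, was 0.45 and -0.59, and Lpl, which frees fatty acids from lipoproteins, 0.41 and -0.44, so neither kept its sign when the dyes were swapped.

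Of the regulators, Pparg, the nuclear receptor that makes an adipocyte, was -1.18 and -1.13, with -1.62 through HF0 but 0.19 through HF4 and 0.34 in experiment 2. Cebpa, its partner, was -0.13 and 0.45. Srebf1, which drives fatty acid synthesis, was -0.81 and -0.86, with 0.56 in experiment 2. Txnip, a glucose-induced inhibitor of thioredoxin, was -1.53 and -1.84, and Rock1, a kinase of the cytoskeleton, -1.42 and -1.81. Both had values above 1 in experiment 2, at 1.41 for Txnip and 1.61 for Rock1. Through HF0 Txnip was -1.09 and Rock1 -0.61, and through HF4 -0.62 and -0.25.

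Lipogenesis genes leaned negative, most of them by less than 1. Of 19 measured, 2 were positive on both arrays, 10 negative on both and 2 at or below -1 on both, against 20.9%, 20.8% and 0.21% of all features, and the median was -0.14. Those 2 were Thrsp, a carbohydrate-induced lipogenic factor, at -1.60 and -1.61, and Scd1, the desaturase that makes monounsaturated fat, at -1.39 and -1.72. Thrsp was -0.77 in experiment 2, -0.45 through HF0 and -0.64 through HF4, and Scd1 was -0.84, -0.63 and -0.01 on those routes, so both were negative on each. Acly, which makes cytosolic acetyl-CoA, was -0.61 and -0.63. Fasn, the fatty acid synthase, was -0.51 on array 1 and 0.51 on array 2, a dye-swap mean of 0.00. Acaca, the enzyme before it, was -0.10 and -0.28.

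Cytochrome P450 genes held the most negative metabolic enzyme. Cyp2e1, which oxidises ethanol and small ketones and is expressed in adipocytes, was -2.29 and -2.90 on the direct arrays, -1.92 through HF0, -0.79 through HF4 and -1.67 in experiment 2. It was negative on every route, and on the direct arrays it lay below every adipocyte gene of the list. Cyp4b1 was -0.90 and -1.06, and Cyp2f2 was -0.73 and -1.07. Of 10 genes of the list, 1 was positive and 5 negative on both arrays, against 20.9% and 20.8% of all features, with a median of -0.17.

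Fatty acid oxidation genes leaned negative by small values, while the median of oxidative phosphorylation genes was near 0 and changed sign between the arrays. Of 19 fatty acid oxidation genes, 2 were positive and 9 negative on both arrays (47.4%, against 20.8% of all features), with a median of -0.19, and none was past 1 on both. Cpt2, the inner carnitine palmitoyltransferase, was -0.48 and -0.72, with -1.02 in experiment 2. Of 22 oxidative phosphorylation genes, 3 were positive and 9 negative on both (40.9%), with a median of -0.03. On array 1 the medians of fatty acid oxidation and oxidative phosphorylation genes were -0.0088 and 0.16. On array 2 they were -0.35 and -0.28. The 9 thermogenesis genes had a median of 0.16, and Ucp1, the uncoupling protein of brown fat, was 0.25 and 0.07. The 16 cholesterol synthesis genes had a median of -0.08, and Insig1, which holds back sterol synthesis, stood apart from them at 1.43 and 0.98.

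Genes tied to the growth of the fat pad did not share a side. Sfrp4, a Wnt-binding protein, was 1.45 and 0.97, with 2.46 in experiment 2, 0.46 through HF0 and 0.08 through HF4. Mest, a marker of adipocyte enlargement in mice, was -0.33 and -0.59, and Npr3, the natriuretic peptide clearance receptor, -0.42 and -0.60. The 7 genes of the list had a median of 0.08.

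Blood vessel genes had the lowest median of the 36 lists. Of 14 endothelial genes, none was positive on both arrays and 12 were negative on both, against 20.9% and 20.8% of all features. At or below -1 on both were 4, against 0.21% of all features, and the list median was -0.91. In experiment 2 the median was -0.42, through HF4 -0.05 and through HF0 0.27. Kdr, the main receptor for vascular endothelial growth factor, was -1.45 and -1.66, and its decoy relative Flt1 was -0.68 and -1.28. Tie1, an endothelial receptor kinase, was -1.05 and -1.25, Egfl7, an endothelial secreted factor, -1.08 and -1.26, and Sox18, a transcription factor of vessel development, -1.22 and -1.25. These 4 genes past -1 did not keep that size elsewhere: in experiment 2 Kdr was 0.21, Sox18 0.01, Tie1 -0.40 and Egfl7 -0.72. Through HF0 Kdr was -0.27, Sox18 0.53, Tie1 0.51 and Egfl7 0.15, and through HF4 they were -0.35, 0.10, -0.37 and -0.05. Pecam1, the CD31 adhesion molecule, was -0.58 and -1.10. Cdh5 and Vwf, which also mark endothelium, were near 0, at -0.22 and 0.01 for Cdh5 and 0.16 and -0.33 for Vwf.

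Contractile genes of the vessel wall were negative in part. Of 10 smooth muscle and pericyte genes, 2 were positive and 6 negative on both arrays, against 20.9% and 20.8% of all features. The list median was -0.34, with -0.59 in experiment 2, 0.02 through HF4 and 0.42 through HF0. Mylk, the myosin light chain kinase, was -1.49 and -1.61, with -0.55 in experiment 2, 0.08 through HF4 and -0.23 through HF0. Acta2, smooth muscle actin, was -0.73 and -1.02. Acta2 was 1.78 through HF0 and -2.54 in experiment 2. Cdh13, T-cadherin, which binds adiponectin on vessels, was -1.71 and -1.98, with -0.32 in experiment 2, -0.56 through HF4 and 0.05 through HF0. The next vessel genes at or below -1 on both arrays were named after their values were seen: the apelin receptor Aplnr had a mean of -1.49 and the capillary carbonic anhydrase Car4 a mean of -1.40. Aplnr was -0.70 in experiment 2, -0.36 through HF4 and 0.13 through HF0, and Car4 was 0.34, 0.19 and 0.06 on those routes.

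Most matrix genes changed sign between the arrays, as did 58.3% of all features. Of 30 extracellular matrix genes, 4 were positive on both arrays, 5 negative on both and 21 split (70%). Their median was 0.27 on array 1, -0.16 on array 2 and 0.03 for the means. It was 0.57 in experiment 2, -0.08 through HF4 and -0.13 through HF0. Col1a1, a fibrillar collagen chain, was -0.35 and -0.57, and Postn, periostin, 0.79 and 0.09. Immediate early genes, which respond within minutes to handling, split as well: 14 of 17 (82.4%) changed sign between the arrays, against 58.3% of all features. Of the rest, 2 were positive on both and 1 negative. Ier3 was 1.47 and 0.46. Heat shock genes had a median of 0.21 over 10 genes, and Hspa1b, an inducible HSP70, was -0.31 and -1.30. Clock genes had a median of 0.07 over 17 genes. The repressors Bhlhe40 and Nfil3, which act on the clock, were 1.39 and 0.87, and 1.12 and 0.46. Noct, nocturnin, a rhythmically expressed enzyme, was 1.17 and 0.66. The core clock genes Arntl and Per2 were near 0, at -0.02 and -0.13 for Arntl and 0.00 and -0.12 for Per2.

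The remaining lists had medians near the 0.03 of all features on the direct arrays, but several differed in the shares with 1 sign. Positive and negative on both were 37.5% and 50% of acute phase genes, and 47.4% and 15.8% of prostanoid and leukotriene genes. The shares were 55.6% and 33.3% for Leydig and Sertoli cell genes and 0% and 40% for insulin signalling genes. Those of all features were 20.9% and 20.8%. The median was -0.16 for 8 acute phase genes, with Saa3, a serum amyloid made by fat and macrophages, at 0.91 and 0.68 and Orm1, an acid glycoprotein, at -0.53 and -0.64. It was 0.04 for 19 genes of prostanoid and leukotriene metabolism, with Alox15, a lipoxygenase of resident macrophages, at 1.02 and 0.54. It was -0.08 for 10 insulin signalling genes, -0.11 for 6 adipocyte progenitor genes, 0.11 for 10 skeletal muscle genes, 0.10 for 5 red cell genes and 0.06 for 9 Leydig and Sertoli cell genes. Some of these lists stood further out elsewhere, such as red cell genes at -0.84 through HF0 and adipocyte progenitor genes at 0.51 in experiment 2. Of the steroid-making genes Star, which carries cholesterol into mitochondria, was 0.49 and 0.57.

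Further negative genes with lipid or amino acid roles, chosen for mention after their values were seen, were Pcx, pyruvate carboxylase, at a mean of -1.28, Cdo1, cysteine dioxygenase, at -1.42, and Depp1, a target of FOXO factors, at -1.60. In experiment 2 Pcx was -0.79, Cdo1 -1.26 and Depp1 -0.55. Through HF0 they were -0.19, -0.59 and -0.19, and through HF4 -0.84, 0.10 and -2.01, so Cdo1 alone of the 3 changed side on a route. Pex16, a peroxisome assembly protein, was -1.61 and -1.90, with 0.02 in experiment 2, -1.03 through HF4 and -0.80 through HF0. Crispld2, a secreted matrix protein, was -1.60 and -1.98, with 0.20 in experiment 2, -1.01 through HF4 and -0.67 through HF0. The most negative feature of all was a probe with no gene symbol, at -4.58 and -4.97 with 2.94 in experiment 2.

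The positive genes of the direct arrays were seen again in experiment 2 more widely than the negative ones, on other arrays and other extracts that played no part in choosing them. Of the 52 positive features, 47 were positive in experiment 2 (against 47.2% of all features) and 32 were at or above 1 (against 4.03%), with a median of 1.42. Of the 48 negative features, 27 were negative there (against 52.8%) and 11 were at or below -1 (against 2.98%), with a median of -0.18. Through HF0 in experiment 1 the order turned: the median was -0.67 for the 52 and -0.44 for the 48. Through HF4 it was 0.26 for the 52 and -0.34 for the 48. The routes through HF0 in both experiments include HF0 over STD, so their medians do not rest on HF3 over HF0 alone. The difference between the sides was not tested.

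**Figure D4:**
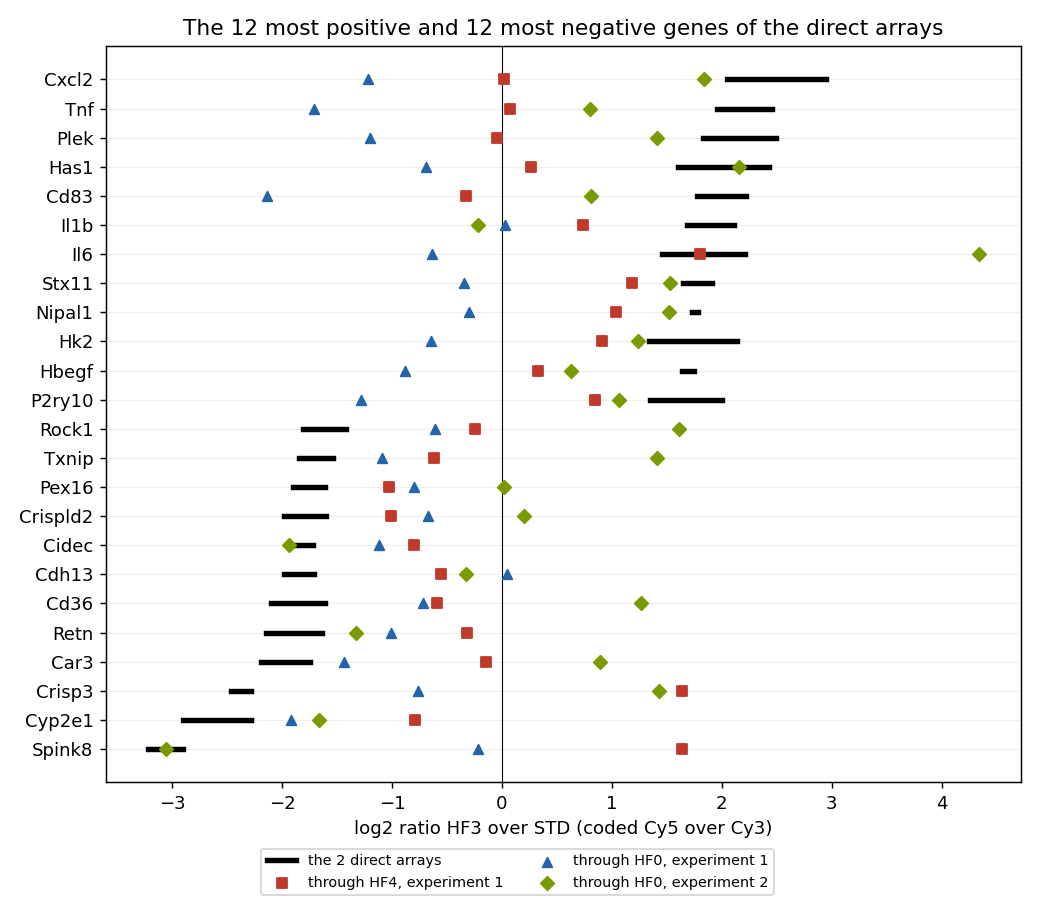
Log2 ratio of HF3 over STD (x axis) for the 12 most positive and 12 most negative genes of the direct arrays, with a black bar spanning array 1 and array 2 and symbols for the other pairings. Among the positive genes the diamonds of experiment 2 lie right of 0 except for Il1b (-0.21), and the triangles through HF0 lie left of 0 except for Il1b (0.03).

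A test needs a spread between extracts, and the only one available takes HF3 and STD once in each experiment. HF3 and STD were taken as 2 extracts each, though the labels number no replicates. limma was fitted to group values estimated from all 34 arrays, with the experiment as a block. It called no feature in either direction after Benjamini-Hochberg adjustment at 0.05 (0% of 22879), and 1708 features (7.47%) had an unadjusted p under 0.05. The lowest adjusted p was 0.457, over settings between 0.0591 and 0.662. In these group values the routes of experiment 1 that do not close are mixed, and the direct pairing enters with them. Such p-values measure the spread between extracts, which may be technical. Retn was -1.32 ± 0.12 (log2, SE) and Cyp2e1 -1.81 ± 0.19, both with an adjusted p of 0.457 from limma. Cidec was -1.72 ± 0.23, Hk2 1.06 ± 0.13, Cxcl2 1.36 ± 0.22 and Lep -0.50 ± 0.12, each with an adjusted p of 0.626 from limma. No difference named above therefore passed a test between groups, and the sizes stand as measurements of 1 pairing.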

How the data were processed

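RNA of epididymal fat was hybridised to two-colour arrays. Per the labels, Trizol served for extraction in experiment 1, Qiagen reagents did in experiment 2, and labelling used Ambion reagents. The authors deposited 1 log ratio per probe and array, taken here as log2 because the highest absolute value on any array, 7.99, is beyond the 4.82 that a log10 ratio of 16-bit intensities can reach. The base could also be natural, so nothing was converted to a fold. The sources used here do not give the background correction, normalization, spot filters or numerator dye. The deposited medians of the direct arrays were -0.00021 and 0.0028.

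Of 25344 probes, 21082 had 1 gene symbol in the platform annotation, 30 several and 4232 none, and 20456 symbols were updated through the RefSeq gene table (GRCm38.p6). Averaging probes of 1 gene left 22879 features, 18617 with a symbol. Each array was centred on its median and turned to HF3 over STD. Genes named were the 12 most positive and 12 most negative by mean among those at or past 1 on both arrays, up to 4 members of each of 36 lists (510 of 552 genes measured) by size of mean among members of 1 sign, any gene past the limma threshold, and a set always named. Other list members were added to describe their lists. The members and lists were chosen with earlier results of these data known. The test was lmFit and eBayes of limma 3.58.1 (R 4.3.3) on 12 group values, with 3 residual and 3.16 prior degrees of freedom, a step tested on simulated data. Python 3.11.15 with pandas 2.3.3 did the rest. Centring, scaling, quantile normalization, the treatment of probes, the minimum, the agreement rule, left-out arrays and, chosen after seeing the data, removal of the dye term of the other 10 arrays of experiment 1 were tried as alternatives. The number of arrays limits the precision.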

Additional observations from a re-analysis of the deposited data

Results flagged for a closer look

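For 5 of the most negative genes and 1 gene list, both direct arrays stood on 1 side and all 8 combinations of the experiment 2 arrays that give HF3 over STD stood on the other. The 8 combinations reuse the same 6 arrays, so they are not independent of each other. The difference was not tested. Crisp3 had a dye-swap mean of -2.37 on the direct arrays, against sums of 0.51 to 2.14 in experiment 2. Car3 had a mean of -1.97, against 0.55 to 1.29. Cd36 had a mean of -1.85, against 0.69 to 2.00. Txnip had a mean of -1.69, against 0.84 to 2.07. Rock1 had a mean of -1.61, against 1.09 to 2.30. The sperm chromatin list had a median of 0.27 on the direct arrays (0.21 on array 1 and 0.22 on array 2), against -1.09 to -0.32 in experiment 2.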

How the results depend on the processing

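The 52 positive and 48 negative features were 97 and 140 with arrays scaled to 1 spread, 136 and 179 after quantile normalization, 213 and 242 at a minimum of 0.58, 10 and 17 at a minimum of 1.5, and 106 and 86 by the mean with 1 sign on both arrays. Read from a single array they ranged from 164 to 250 positive and from 102 to 261 negative, since agreement is no longer asked. With the dye term of the other arrays removed, an alternative chosen after seeing the data, they were 83 and 65, with 49 and 46 of the original features among them. Without centring, by the median of probes or per probe the counts stayed within 1.5 times. limma called 0 features under every setting tried, including without the 2 direct arrays and without each array in turn.

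Of the 52 positive features, 9 kept their sign through HF0, 36 through HF4 and 47 in experiment 2; of the 48 negative ones, 39, 33 and 27 did. Of the 37 genes past 1 on both arrays that the naming rule covers, 16 turned sign through HF0, 8 through HF4 and 11 in experiment 2; the cause was not tested. Through HF0 these were Cxcl2 (-1.22), Tnf (-1.71), Plek (-1.20), Has1 (-0.69), Cd83 (-2.14), Il6 (-0.64), Stx11 (-0.35), Nipal1 (-0.30), Hk2 (-0.65), Hbegf (-0.88), P2ry10 (-1.28), Cd14 (-1.54), Cdh13 (0.050), Sox18 (0.53), Egfl7 (0.15) and Tie1 (0.51). Through HF4 they were Plek (-0.046), Cd83 (-0.33), Cd14 (-0.18), Spink8 (1.64), Crisp3 (1.64), Sox18 (0.10), Mylk (0.076) and Pparg (0.19). In experiment 2 they were Il1b (-0.21), Crisp3 (1.43), Car3 (0.89), Cd36 (1.27), Crispld2 (0.20), Pex16 (0.023), Txnip (1.41), Rock1 (1.61), Kdr (0.21), Sox18 (0.0059) and Pparg (0.34). No paired analysis was possible because the 2 direct arrays were taken as 1 pairing in both dyes and the labels number no replicates.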
